A study of Mus musculus with 11 samples.

Results

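Integrins are cell surface receptors made of 1 alpha and 1 beta chain, and the 10 genes described here encode chains that form receptors for CYR61 or share a partner with one. They were taken by symbol from a named list, with no measured value in the rule, and that list was drawn up with earlier results of these data known: Itgam, Itgal, Itgax, Itgav, Itga4 and Itga5 encode alpha chains, and Itgb2, Itgb3, Itgb5 and Itgb1 encode beta chains. All 10 were found once each among the 55487 gene IDs of the count table. RNA was sequenced from bone marrow-derived macrophages of C57BL/6J mice aged 2 to 5 months, after removal of ribosomal RNA. Such cells are marrow cells turned into macrophages in culture, here with CMG-conditioned medium in both groups. There were 4 libraries of cells exposed for 24 h to CYR61 at 0.5 µg/ml, and they are set against 7 libraries of control cells without it. Neither a vehicle for the controls nor separate mice or cultures for the libraries is named in the labels, and the spread behind each p-value may therefore be technical.

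CYR61 (CCN1), a protein of the CCN family that cells secrete into the matrix, signals through integrins. The chains alpha M and beta 2 form Mac-1 or complement receptor 3, a phagocytic and adhesive receptor of myeloid cells, and alpha V pairs with beta 3 or beta 5 to bind vitronectin, osteopontin and CYR61. Alpha L and alpha X are the other beta 2 partners examined, beta 1 pairs with alpha 4, alpha 5 and alpha V, and an alpha chain needs its beta chain to reach the cell surface. Binding itself was not measured, and the list gives no evidence that alpha L, alpha X, alpha 4 or alpha 5 binds CYR61.

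The libraries held 17390272 to 20760322 counts with CYR61 and 14912123 to 21047654 counts in controls. Levels are given as CPM, the usual depth-scaled unit in which the count of a gene is divided by the total of its library, here with totals adjusted by TMM factors. CYR61 replicate 4 stood apart over all genes: a chi-square statistic per gene between its counts and those of the other 3 CYR61 libraries was 19.2 to 33.4, against 2.90 to 10.6 for the other 24 pairs within a group. Values without it are given for the subunits, the partner ratios and the lists of integrin pathway genes. A gene is said to have risen or fallen where edgeR's quasi-likelihood test gave a Benjamini-Hochberg adjusted p under 0.05 over all 15135 genes tested. All 8 macrophage markers examined were detected and tested, among them Csf1r, the receptor for colony-stimulating factor 1, with 3271 ± 57.8 CPM in CYR61 libraries and 2992 ± 96.3 CPM in control libraries (SD, n = 4 and 7).

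Per length, the beta 2 chain and its partner alpha M were the most abundant of the 10 transcripts. Levels of different genes were compared as CPM per kb of exon, with lengths from the GENCODE M21 annotation. Itgb2 stood at 287 ± 4.35 CPM per kb with CYR61 and 250 ± 2.57 CPM per kb in controls (SD, n = 4 and 7), above 99.2% and 99.1% of the tested genes. Itgam followed at 140.0 ± 6.59 with CYR61 and 107 ± 5.20 CPM per kb in controls, and then came Itgb1 (80.3 ± 2.10 and 78.0 ± 1.51) and Itgb5 (73.7 ± 2.10 and 67.9 ± 7.25). Itgal, Itga5, Itga4 and Itgav formed a middle group between 17.2 and 26.9 CPM per kb with CYR61 and between 17.9 and 23.1 CPM per kb in controls. Itgax was low at 6.64 ± 0.288 and 6.27 ± 0.407 CPM per kb, and Itgb3 lowest at 1.33 ± 0.135 with CYR61 and 1.84 ± 0.142 CPM per kb in controls.

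The order from Itgb2 down to Itgb3 was the same in both groups. In CYR61 libraries the ranges of neighbours overlapped for 1 pair, Itga5 and Itga4. In controls they overlapped for Itgb1 and Itgb5, Itgal and Itga5, Itga5 and Itga4, and Itga4 and Itgav. Overlap of ranges does not compare both genes within a library. In every control library Itga5 lay above Itga4, with a ratio per kb of 1.01 to 1.23, and Itga4 above Itgav. The order of Itgb1 and Itgb5 and that of Itgal and Itga5 differed between control libraries. In CYR61 replicate 2 the Itga5/Itga4 ratio was 0.979. With the longest transcript as the length, Itga4 moved to place 5 and Itga5 to place 8 in controls, while the top 4 and the bottom 2 kept their places.

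**Figure D1:**
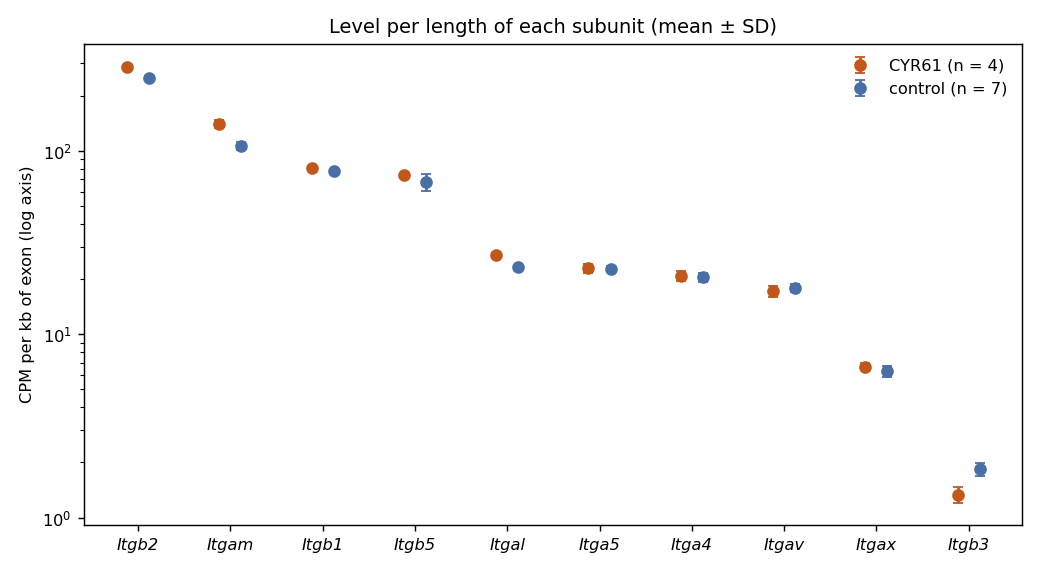
Mean level per length of each subunit in CPM per kb of exon on a log axis, with SD, for CYR61 libraries (n = 4) and control libraries (n = 7). Itgb2 and Itgam lie highest in both groups, and Itgb3 lies lowest at 1.33 with CYR61 and 1.84 in controls.

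Of the 10 subunits, 3 rose with CYR61 (Itgam, Itgal and Itgb2), 1 fell (Itgb3) and 6 did not pass. Across all tested genes, 7.96% passed in either direction, 5.33% as higher and 2.63% as lower. Higher genes made up 66.9% of these calls and 36.1% when libraries were scaled by size alone, and the 4 subunits kept their calls and directions under that scaling. Without CYR61 replicate 2, 583 genes passed as higher and 205 as lower, against 806 and 398 with all libraries. Without CYR61 replicate 4 the same 4 subunits passed, with log2 fold changes of 0.38 for Itgam, 0.19 for Itgb2, 0.20 for Itgal and -0.48 for Itgb3 (edgeR adjusted p of at most 0.00340). The median log2 fold change was 0.06 over the 10 subunits and -0.0076 over all genes tested. For the 4 subunits that passed, every CYR61 library lay on the same side of every control library, as was the case for 7.16% of all tested genes (4.65% with every CYR61 library above and 2.50% with every one below). In bulk RNA a change in RNA per cell cannot be told apart from a change in the share of cells that carry it.

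**Figure D2:**
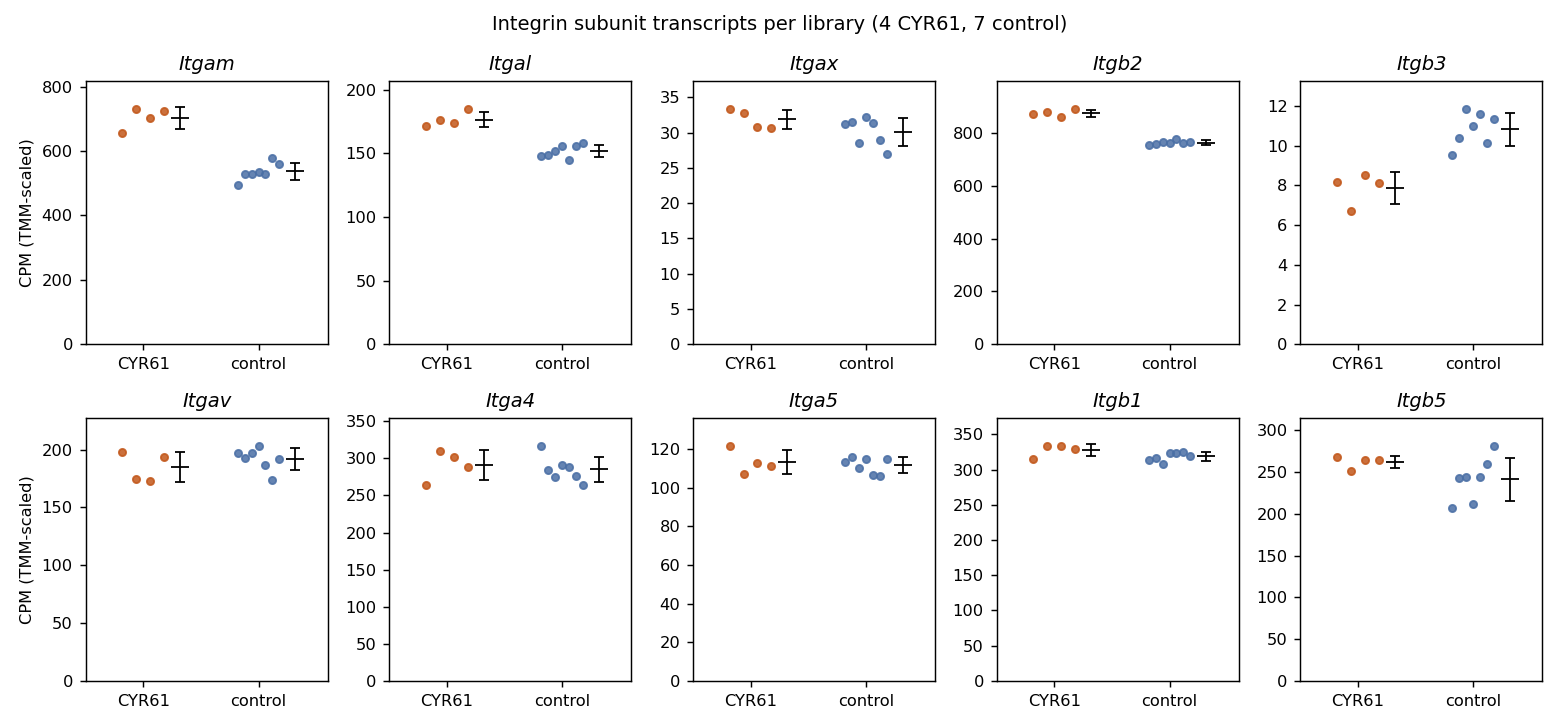
CPM of each subunit in each library, with CYR61 libraries (n = 4) left of control libraries (n = 7) and the mean ± SD beside each group. Groups do not overlap for Itgam, Itgal and Itgb2, which are higher with CYR61, and for Itgb3, which is lower, and they overlap for the other 6.

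Itgam and Itgax are neighbours on chromosome 7 in the RefSeq order of GRCm38.p6, with 1 pseudogene and no protein-coding gene between them, and Itgad, which encodes another beta 2 partner, is next to Itgax. Itgam rose and Itgax did not pass, so their promoter windows are shown for comparison. Each covers 250 bases before to 50 after the RefSeq start on the plus strand of GRCm38.p6, at chr7:128062390-128062689 for Itgam and chr7:128129300-128129599 for Itgax. Capitals mark GAGGAA or its reverse complement, the core of sequences bound by PU.1, a transcription factor that macrophage development needs.
Itgam: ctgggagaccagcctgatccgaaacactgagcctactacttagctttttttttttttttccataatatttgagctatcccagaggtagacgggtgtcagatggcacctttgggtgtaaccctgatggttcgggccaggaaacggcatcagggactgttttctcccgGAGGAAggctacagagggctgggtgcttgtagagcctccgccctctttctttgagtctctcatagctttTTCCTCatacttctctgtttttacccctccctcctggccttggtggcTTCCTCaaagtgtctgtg
Itgax: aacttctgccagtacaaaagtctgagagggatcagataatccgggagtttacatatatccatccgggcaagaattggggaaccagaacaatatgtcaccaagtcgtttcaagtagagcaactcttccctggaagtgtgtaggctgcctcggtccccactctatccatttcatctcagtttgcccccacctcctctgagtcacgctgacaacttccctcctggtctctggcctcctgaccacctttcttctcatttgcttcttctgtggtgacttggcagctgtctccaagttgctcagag
The Itgam window held GAGGAA 3 times, starting at positions -84, -15 and 33 from the transcription start, and the Itgax window did not hold these letters. Of 32544 mouse promoter windows of the same length, 28.1% held the motif on either strand. The letters GGGCGG, the GC box, were found once in the Itgam window, not in the Itgax window and in 35.9% of all windows, with no overlap with GAGGAA. Windows were at hand for 7 of the 10 subunits, not for Itgb2, Itgb3 or Itgal. Among the 7, Itgav held GAGGAA at 2 places and Itgb1 and Itga5 at 1, and TATAAA, found in 13.6% of all windows, was in none. A match of letters is a description and not evidence of binding.

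Itgam, the alpha M chain, had 657, 730.1, 702 and 724 CPM in CYR61 replicates 1 to 4, against a lowest value of 496, a median of 530.2 and a highest value of 578 CPM in controls. All 4 CYR61 libraries stood above the highest control, and CYR61 replicate 1 stood nearest to it. The rise was 0.39 ± 0.039 on the log2 scale, 1.31-fold (SE, edgeR adjusted p = 5.11e-06). Itgam was measured with 7550 to 14806 counts per library, and the spread within each group (CV of 4.71% with CYR61 and 4.87% in controls) was well above the 0.881% and 1.00% that counting alone gives. A gene model on the same strand, Gm49368, overlaps Itgam in GENCODE M21 and held 0.256 to 0.699% as many counts. The estimated counts of Itgam were not whole numbers in any library, as happens where reads are shared between features.

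Itgb2, the beta 2 chain, had 872, 880.3, 859 and 890.0 CPM in CYR61 replicates 1 to 4, against 753, 763 and 778 CPM as the lowest, median and highest control. Counting error gives a CV of 0.789% with CYR61 and 0.841% in controls. The spread of Itgb2 was above that with CYR61 (CV of 1.52%) and close to it in controls (1.03%), but narrow in both. A rise of 0.20 ± 0.025 on the log2 scale, to 1.146 times control, therefore left a clear gap between the groups (SE, edgeR adjusted p = 5.45e-05). Its counts were whole numbers in all 11 libraries.

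Itgal, the alpha L chain of LFA-1, a leukocyte adhesion receptor for ICAM proteins, had 172, 176, 174 and 185 CPM in CYR61 replicates 1 to 4. Controls ran from 145 through a median of 152 to 158 CPM. The groups did not overlap, and the rise of 0.22 ± 0.032 on the log2 scale (1.16-fold; SE, edgeR adjusted p = 0.000253) was close in size to that of Itgb2. Itgax, the alpha X chain of complement receptor 4, had 33.3, 32.8, 30.8 and 30.6 CPM with CYR61 and 27.0, 31.2 and 32.2 CPM as the lowest, median and highest control. CYR61 replicates 1 and 2 lay above all controls and replicates 3 and 4 within their range, and its log2 fold change of 0.08 ± 0.052 did not pass (SE, edgeR adjusted p = 0.403).

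Markers of other cell types that carry beta 2 integrins were low apart from the monocyte marker Ccr2, and some moved with CYR61. Of 8 neutrophil markers, 1 was abundant enough to be tested, S100a8, which rose and had at most 32 counts in any library. Ly6g was at 0 in all libraries, and the 8 markers summed to 1.66 to 2.02 CPM with CYR61 and 0.687 to 1.34 CPM in controls. All 3 monocyte markers were tested and 2 rose, Ccr2 (53.1 ± 4.07 CPM with CYR61 and 43.5 ± 1.96 CPM in controls; SD, n = 4 and 7) and Ly6c2 (0.935 ± 0.325 and 0.0917 ± 0.0389 CPM). Their summed level was 49.6 to 60.3 CPM with CYR61 and 42.2 to 46.9 CPM in controls. Of the 8 macrophage markers 5 rose and 0 fell, beside 5.33% and 2.63% of all tested genes. The 8 macrophage markers summed to 24370 to 26506 CPM with CYR61 and 22074 to 23450 CPM in controls. The part of the monocyte and macrophage markers in the rise of Itgam, Itgal and Itgb2 was not tested. Dendritic cell markers, which would accompany Itgax, summed to 1.33 to 2.05 CPM with CYR61 and 1.47 to 2.41 CPM in controls, and neither of the 2 tested passed.

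Itgb3, the beta 3 chain of the vitronectin receptor, was the subunit that fell. It had 8.15, 6.71, 8.51 and 8.13 CPM in CYR61 replicates 1 to 4, against 9.52, 10.999 and 11.8 CPM as the lowest, median and highest control. All 4 CYR61 libraries lay below the lowest control, and CYR61 replicate 2 lay lowest. The fall was -0.46 ± 0.082 on the log2 scale, to 0.725 times control (SE, edgeR adjusted p = 0.00121). Itgb3 had 136 to 229 counts per library, so counting error alone gives a CV of 8.33% with CYR61 and 7.08% in controls, close to the CVs of 10.1% and 7.74% that were found.

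Its alpha partner did not pass. Itgav, the alpha V chain, had 198, 174, 173 and 194 CPM in CYR61 replicates 1 to 4, against 174, 193 and 203 CPM as the lowest, median and highest control. The groups overlapped almost fully, with CYR61 replicate 3 just below the lowest control, replicate 2 just above it and replicates 1 and 4 above the control median, and the log2 fold change was -0.05 ± 0.045 (SE, edgeR adjusted p = 0.563). On the opposite strand of Itgav lie Gm13684 and the pseudogene Dnmt3l-ps1, with 1.18 to 1.84% and 0.731 to 1.36% as many counts as Itgav, and whether counting used the strand is not stated in the labels.

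Itgb5, the beta 5 chain and the other CYR61-binding partner of alpha V, had 267, 251, 264 and 264 CPM with CYR61 and 206, 244 and 281 CPM as the lowest, median and highest control. Every CYR61 library was above the control median and within the control range. Controls varied with a CV of 10.7%, the widest of the 10 subunits, against 2.85% with CYR61 and a counting error of 1.504%. The log2 fold change of 0.12 ± 0.063 did not pass (SE, edgeR adjusted p = 0.318). It did pass, at 0.21 on the log2 scale, when controls 5 to 7 were left out so that both groups held replicates 1 to 4 (edgeR adjusted p = 0.0192, a subset chosen after the data were seen).

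Osteoclasts are bone-resorbing macrophage relatives that are known for high alpha V beta 3. Those of their markers that could be tested did not pass as lower. Of 6 such markers 4 were tested, 2 rose and 0 fell, beside 5.33% and 2.63% of all tested genes. The 6 markers summed to 32.1 to 35.4 CPM with CYR61 and 24.7 to 30.6 CPM in controls. The 2 that rose were Acp5, tartrate-resistant acid phosphatase, and the metalloproteinase Mmp9. Acp5 had 9.08 ± 0.859 CPM with CYR61 and 7.11 ± 0.624 CPM in controls (SD, n = 4 and 7). Mmp9 had 2.38 ± 1.22 and 0.0931 ± 0.0725 CPM. Ctsk, the collagen-degrading cathepsin K, stood at 21.6 ± 2.78 and 20.4 ± 1.99 CPM and did not pass, and Calcr, the calcitonin receptor, was at 0 in all libraries. Ocstamp and Dcstamp had at most 6 and 14 counts in any library, too few for a fall to be seen readily. The part of these markers in the values of Itgb3 was not tested.

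The beta 1 chain and its partners alpha 4 and alpha 5 did not pass. Itgb1, the common chain of fibronectin, collagen and laminin receptors, had 315, 334, 333 and 330 CPM with CYR61 and 308, 320 and 325 CPM as the lowest, median and highest control. CYR61 replicates 2 to 4 were above all controls and replicate 1 was not, and the log2 fold change was 0.04 ± 0.028 (SE, edgeR adjusted p = 0.457). Itga4, the alpha 4 chain of the receptor for VCAM-1 and fibronectin, had 264, 309, 302 and 288 CPM with CYR61 and 264, 284 and 317 CPM in the lowest, median and highest control. Itga5, the alpha 5 chain of the classical fibronectin receptor, had 122, 107, 113 and 111 CPM with CYR61 and 106, 113 and 116 CPM in controls by the same measures. Both overlapped their controls, with log2 fold changes of 0.03 ± 0.047 and 0.02 ± 0.037 (SE, edgeR adjusted p = 0.784 and 0.840). These 3 small differences changed sign when libraries were scaled by size alone, to -0.0037 for Itgb1, -0.015 for Itga4 and -0.026 for Itga5 on the log2 scale, so no direction is given for them.

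**Figure D3:**
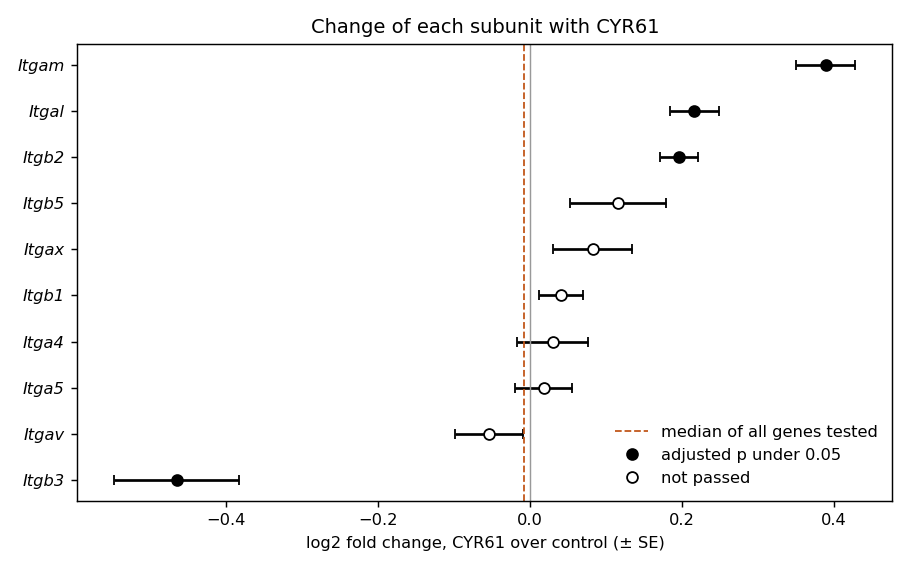
Log2 fold change of each subunit, CYR61 over control, with its SE; filled points passed the adjusted p threshold of 0.05 in edgeR and open points did not, and the dashed line is the median of all genes tested. Itgam has the highest value at 0.39 and Itgb3 the lowest at -0.46.

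Partners were next compared within each library, as the ratio of their levels per kb. Such a ratio does not depend on the scaling between libraries, and the choice of length moves its level but not its change. The 12 ratios, 8 of an alpha to a beta chain and 4 of chains that share a partner, were tested by exact permutation over all 330 assignments of the labels, two-sided, with Benjamini-Hochberg adjustment over the 12. The smallest p this design can give is 0.00303. Of the 12, 5 passed. The ratios share genes and are not independent. Each of the 5 holds Itgam or Itgb3, which passed as single genes, so these calls in part repeat theirs. How often ratios of other gene pairs pass was not tested.

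Alpha M rose more than beta 2. The Itgam/Itgb2 ratio was 0.458, 0.504, 0.496 and 0.494 in CYR61 replicates 1 to 4, against 0.400, 0.425 and 0.461 as the lowest, median and highest control. CYR61 replicate 1 lay just under the highest control and the other 3 lay above it. The ratio differed by 0.19 ± 0.040 on the log2 scale, 14.4% higher with CYR61 (SE, exact permutation p = 0.00606, adjusted p = 0.0182). The Itgal/Itgb2 ratio, at 0.0938 ± 0.00212 with CYR61 and 0.0924 ± 0.00317 in controls, differed by 0.02 ± 0.025 on the log2 scale and did not pass (SD for the means and SE for the difference, n = 4 and 7; exact permutation p = 0.488, adjusted p = 0.651). Itgax/Itgb2 stood at 0.0231 ± 0.00106 and 0.0251 ± 0.00169 (SD, n = 4 and 7; exact permutation p = 0.0909, adjusted p = 0.182).

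The alpha M chain also gained on the other beta 2 partners. Itgam/Itgal was 5.01, 5.42, 5.27 and 5.13 in CYR61 replicates 1 to 4 and 4.38, 4.62 and 4.86 in the lowest, median and highest control, with no overlap and a difference of 0.17 ± 0.031 on the log2 scale (SE, exact permutation p = 0.00303, adjusted p = 0.0182). Itgam/Itgax was 21.1 ± 1.62 and 17.1 ± 1.78, a difference of 0.31 ± 0.080 on the log2 scale with overlapping groups (SD for the means and SE for the difference, n = 4 and 7; exact permutation p = 0.0121, adjusted p = 0.0291). That call was lost in 8 of 13 alternatives. Among them was the replicate block, in which no ratio could pass, since its smallest possible exact permutation p is 0.125. The others left out any 1 of control replicates 1, 2, 4 and 5 (exact permutation adjusted p of 0.0571 to 0.0686) or of CYR61 replicates 2, 3 and 4 (0.06 to 0.12). Per kb, Itgam made up 80.7 ± 0.596% of the Itgam, Itgal and Itgax transcripts with CYR61 and 78.4 ± 0.736% in controls (SD, n = 4 and 7).

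Among the alpha V pairs, the balance between the beta chains changed. Itgb3/Itgb5 was 0.0184, 0.0161, 0.0194 and 0.0185 in CYR61 replicates 1 to 4, against 0.0236, 0.0278 and 0.0312 as the lowest, median and highest control. The groups did not overlap, and the ratio fell by 33.4%, or -0.59 ± 0.080 on the log2 scale (SE, exact permutation p = 0.00303, adjusted p = 0.0182). Itgav/Itgb3 was 13.3, 14.3, 11.2 and 13.1 with CYR61 and 8.86, 9.40 and 11.4 in the lowest, median and highest control, so CYR61 replicate 3 lay within the control range. That ratio differed by 0.41 ± 0.088 on the log2 scale (SE, exact permutation p = 0.00606, adjusted p = 0.0182).

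The other 5 ratios, those of Itgav to Itgb5 and Itgb1, of Itga4 and Itga5 to Itgb1 and of Itga5 to Itga4, did not pass. Their adjusted p ran from 0.239 for Itgav/Itgb5, with a log2 difference of -0.18 ± 0.088 (SE), to 0.894 (exact permutation, n = 4 and 7). The ratio calls rest on few libraries: without CYR61 replicate 2 or without CYR61 replicate 4, 0 of the 12 passed, with 0.05 as the adjusted p of Itgam/Itgb2, Itgav/Itgb3, Itgam/Itgal and Itgb3/Itgb5 (exact permutation, n = 3 and 7, where 0.00833 is the smallest p possible). Without CYR61 replicate 3, 3 passed.

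**Figure D4:**
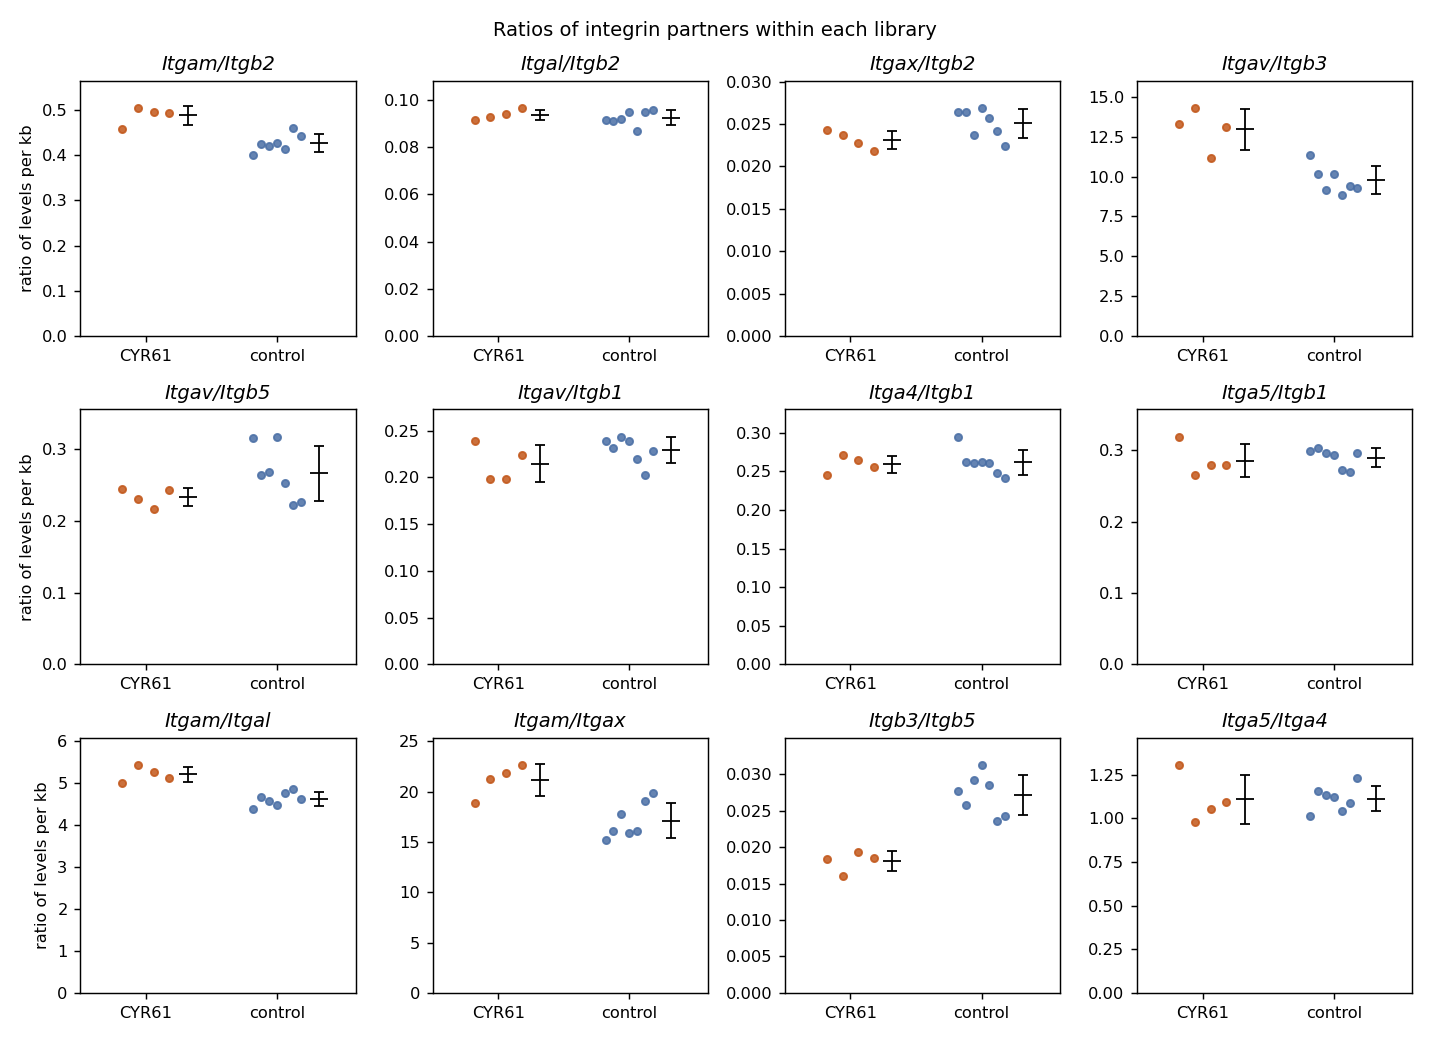
Ratio of the levels per kb of 2 subunits in each library for the 12 ratios tested, with CYR61 libraries (n = 4) left of control libraries (n = 7) and the mean ± SD beside each group. Groups are apart for Itgam/Itgal, which is higher with CYR61, and Itgb3/Itgb5, which is lower, and overlap for the other 10.

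The 6 lists of integrin pathway genes were chosen with earlier results of these data known. Their counts set against all tested genes are therefore a description and not a test of enrichment. Among the 16 other integrin subunit genes, 9 were abundant enough to be tested. Of these, 0 passed in edgeR, where 7.96% of all tested genes passed, and 0 in DESeq2 or in edgeR without CYR61 replicate 4. The unadjusted edgeR p was under 0.05 for 2 of the 9. Itga6 encodes the alpha 6 chain, which pairs with beta 1 in a receptor that CYR61 is known to bind. It had 38.3 ± 0.987 CPM per kb with CYR61 and 36.0 ± 2.08 CPM per kb in controls (SD, n = 4 and 7), above 6 of the 10 subunits described here, and its log2 fold change of 0.09 did not pass (edgeR adjusted p = 0.214). Itgb7, the partner of alpha 4 in a gut-homing receptor, stood at 14.8 ± 1.63 and 16.1 ± 0.723 CPM per kb and also did not pass (log2 fold change -0.11, edgeR adjusted p = 0.257). It passed as lower without CYR61 replicate 1 (log2 fold change -0.19, edgeR adjusted p = 0.00836). Itga8, a partner of beta 1, and Itgae, the partner of beta 7, had log2 fold changes of -0.09 and -0.26 (edgeR adjusted p = 0.704 and 0.606). Itgad had at most 4 counts in a library.

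In the list of integrin activation and adhesion complex genes, 4 of 23 tested rose, 1 fell and 18 did not pass. The median log2 fold change of the list was 0.03, and without CYR61 replicate 4 again 4 rose and 1 fell. For comparison, 5.33% of all tested genes passed as higher and 2.63% as lower. Fermt3 encodes kindlin-3, which binds beta chain tails and is needed for beta 2 integrin activation in leukocytes. It had 396 ± 13.1 CPM with CYR61 and 354 ± 11.6 CPM in controls (SD, n = 4 and 7; edgeR adjusted p = 0.00343). Flna, the actin crosslinker filamin A that competes with talin for beta tails, had 1274 ± 12.6 and 1138 ± 28.6 CPM (SD, n = 4 and 7; edgeR adjusted p = 0.000733). Zyx, encoding the focal adhesion protein zyxin, and Parvg, encoding the adaptor gamma-parvin, rose by 0.13 and 0.27 on the log2 scale (edgeR adjusted p = 0.00736 and 0.0297). Scaling by library size alone ended both calls and left 2 rises in the list. The call of Parvg was lost in 8 of 20 alternatives, among them leaving out any 1 of CYR61 replicates 2 to 4 or of control replicates 1, 3, 4 and 5, and that of Zyx in 1. The member that fell was Tns1, encoding tensin 1, with 446 ± 17.6 CPM with CYR61 and 531 ± 9.56 CPM in controls (SD, n = 4 and 7; edgeR adjusted p = 2.87e-05).

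Of 7 kinases that act downstream of integrins in myeloid cells, 4 rose and 3 did not pass, against 5.33% higher over all tested genes. This list too was chosen with earlier results of these data known. The median log2 fold change of the kinases was 0.10, and without CYR61 replicate 4 again 4 rose and 0 fell. Fgr, which encodes a Src family kinase of myeloid cells, had 27.5 ± 3.52 CPM with CYR61 and 16.6 ± 1.22 CPM in controls (SD, n = 4 and 7; edgeR adjusted p = 5.42e-06). The groups did not overlap. Src rose by 0.49 on the log2 scale (edgeR adjusted p = 0.0119) and Syk, which encodes a kinase recruited by immunoreceptors and integrins, by 0.10 (edgeR adjusted p = 0.0361). The call of Syk was lost in 11 of 20 alternatives and that of Src in 2, both on the 8 libraries with replicates 1 to 4, which left 2 rises in the list.

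The list of integrin ligands and counter-receptors had a median log2 fold change of 0.26. It was also chosen with earlier results of these data known, so its contrast with all tested genes is a description. Where 5.33% of all tested genes passed as higher and 2.63% as lower, 5 of its 10 tested genes rose and 0 fell. They were C3, whose cleaved form is a ligand of Mac-1 (log2 fold change 1.65), Fn1, encoding fibronectin (0.48), Tgfbi, encoding a matrix protein that binds integrins (0.30), Icam1, a ligand of LFA-1 and Mac-1 (0.29), and Spp1, encoding the alpha V ligand osteopontin (0.29). Their adjusted p ran from 1.81e-09 for C3 to 0.0361 for Spp1 (edgeR), and 10 of 20 alternatives lost the call of Spp1, one of them the fit without CYR61 replicate 4, where 4 ligand genes rose (Spp1 adjusted p = 0.152, edgeR). The 14 that were not tested for low counts included all 6 CCN family genes, with at most 9 counts in any library.

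Membrane partners and recycling genes had median log2 fold changes of 0.03 and 0.02. Over all tested genes, 5.33% passed as higher and 2.63% as lower. Of 11 membrane partners tested, Bsg, encoding basigin, rose (178 ± 5.28 CPM with CYR61 and 160 ± 6.39 CPM in controls) and the tetraspanin gene Cd9 fell (242 ± 15.3 and 277 ± 6.99 CPM; SD, n = 4 and 7; edgeR adjusted p = 0.00601 and 0.00251). Cd47, encoding integrin-associated protein, and the tetraspanin gene Cd82 had log2 fold changes of 0.12 and 0.13 that did not pass (edgeR adjusted p = 0.0648 and 0.107). Cd47 passed in 5 of 20 alternatives, DESeq2 among them. Leaving out CYR61 replicate 4 again gave 1 rise and 1 fall among the membrane partners. Of 11 recycling genes 2 rose, Ehd1, which acts in endosomal recycling, by 0.23 and Eps8, an actin regulator, by 0.37 on the log2 scale (edgeR adjusted p = 0.00561 and 0.00716). Dab2, an endocytic adaptor, and Numb had log2 fold changes of 0.34 and -0.07 that did not pass (edgeR adjusted p = 0.0590 and 0.279), and Dab2 passed in 8 of 20 alternatives, as it did without CYR61 replicate 4, where 3 recycling genes rose (Dab2 adjusted p = 0.0491, edgeR).

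**Figure D5:**
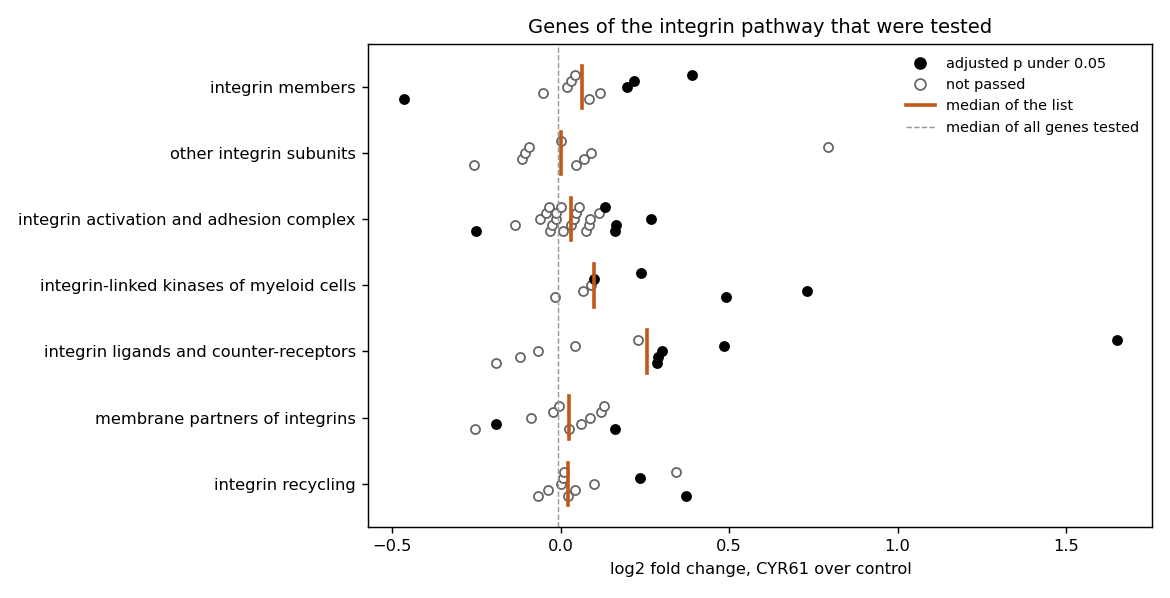
Log2 fold change, CYR61 over control, of each tested gene in the 10 subunits and in 6 lists of integrin pathway genes; filled points passed the adjusted p threshold of 0.05 in edgeR, the thick bar is the median of the list and the dashed line the median of all genes tested. The ligand list has the highest median at 0.26, and no gene of the other integrin subunits passed.

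Likeness to Itgam and Itgb3 over all libraries repeats their group difference in part, since the groups do not overlap for either. As a description over the 11 libraries and 13350 genes that averaged 1 CPM or more, the log2 CPM patterns most like that of Itgam were those of Nxpe5, Fdft1, which encodes squalene synthase, and the scavenger receptor gene Marco. Their Pearson correlations with Itgam were 0.980, 0.979 and 0.979, and within the 7 controls alone 0.941, 0.732 and 0.763. For Itgb3 they were Lyrm9, Troap and Arap2, at 0.945, 0.945 and 0.934 over all 11 libraries and 0.690, 0.488 and 0.227 within controls.

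In the authors' deposited table the same 4 subunits had an adjusted p under 0.05. Its log2 fold changes were 0.41 for Itgam, 0.23 for Itgal, 0.20 for Itgb2 and -0.49 for Itgb3, and the authors' deposited table gave adjusted p of 0.121 for Itgb5 and 0.137 for Itgb1, the lowest of the other 6.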

How the data were processed

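RNA-seq libraries of mouse bone marrow-derived macrophages (4 with CYR61 and 7 control) were analysed from the authors' deposited table of estimated counts per Ensembl gene. DRAGEN is named in the submitters' processing notes, with its version and role not given in the sources used here, and likewise the genome build, the annotation and the use of strand. A comparison table deposited by the authors holds log2 fold changes, p-values and score columns such as log odds and signed linear fold changes, per the file headers, and was used for 1 check. Between 88.6% and 89.4% of the estimated counts in a library, zeros included, were whole numbers, and counts were rounded before testing.

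Genes were filtered with filterByExpr, scaled with TMM and tested with edgeR 4.0.16 (quasi-likelihood test, CYR61 over control, no covariates) in R 4.3.3, with Benjamini-Hochberg adjustment over 15135 genes and a threshold of 0.05. The script was tested on simulated data. CPM used the TMM-scaled library sizes, and levels per kb used the exon union length of GENCODE M21, found for 15110 of the tested genes. Partner ratios were tested by two-sided exact permutation in Python 3.11.15. Alternatives were DESeq2 1.42.0, limma-voom (limma 3.58.1), other scalings and filters, 1 surrogate variable (sva 3.50.0), a replicate block and leaving out each library. No 2 libraries of a group agreed within sampling noise, and CYR61 replicate 4 lay farthest from its group. Promoter windows were taken from RefSeq for GRCm38.p6, and no coordinate of the count table was used.

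The members and lists were chosen with earlier results of these data known. Genes named from a list were the 4 with the lowest p that averaged 1 CPM or more in either group, plus any that passed where at most 5 did. The 3 genes most like Itgam and Itgb3, the osteoclast markers and Itgb8 were also named. The values of 1 gene that this rule names are not reported here.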

Additional observations from a re-analysis of the deposited data

Results flagged for a closer look

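A sample that stood apart from the rest of its group was looked for in 44 groups of values, the CPM of the 10 subunits and the 12 partner ratios in each condition and 2 were found. Some such cases arise by chance, and how many was not computed here. Itgb5 in CYR61 replicate 2 was the lowest of the 4 CYR61 libraries at 251 CPM, with a gap to the next that was 0.833 of the range of the group. The Itga4/Itgb1 ratio per kb in control replicate 1 was the highest of the 7 controls at 0.295, with a gap of 0.600 of the range. Neither Itgb5 nor Itga4/Itgb1 passed its test with all libraries.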

How the results depend on the processing

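Itgam, Itgb2, Itgal and Itgb3 passed in the same direction in all 20 alternatives of the gene test, with adjusted p of at most 5.23e-05, 0.00165, 0.00149 and 0.0113. Leaving out 1 library at a time gave 4 to 4 subunits, 15 to 21 list genes, 788 to 1372 genes in all and 0 to 6 ratios that passed. Of all genes 788 passed without CYR61 replicate 2 and 977 without CYR61 replicate 4. Ratios that passed numbered 0 without CYR61 replicate 2, 0 without CYR61 replicate 4 and 3 without CYR61 replicate 3, where the smallest possible p is larger with fewer libraries. Itgax/Itgb2 passed without control replicate 7 (exact permutation adjusted p = 0.0476). With scaling by library size alone the log2 fold changes turned to -0.0037 for Itgb1, -0.015 for Itga4 and -0.026 for Itga5, and 1 ligand gene fell. Leaving out 1 library at a time gave log2 fold changes of -0.017 to 0.046 for Itga5, and log2 differences of -0.034 to 0.017 for Itga4/Itgb1, -0.077 to 0.012 for Itga5/Itgb1 and -0.092 to 0.046 for Itga5/Itga4. The cause was not tested.

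Deviations of same-numbered libraries correlated at -0.0113, -0.001, -0.0339 and 0.0337. Differently numbered pairs of a CYR61 and a control library, among replicates 1 to 4, ran from -0.0833 to 0.1333. Same-numbered pairs therefore did not stand out. These correlations cannot decide whether libraries were paired, since a shared mouse or culture need not show in them. With replicates 1 to 4 and the number as a block, 1261 genes, 5 subunits and 19 list genes passed, and Itgb5 (log2 fold change 0.21, edgeR adjusted p = 0.0253) and Itga6 (0.13, edgeR adjusted p = 0.0367) joined. Itga4 turned to -0.0033 and Itga5 to -0.0092 with the block, and to -0.0028 and -0.0076 on the same 8 libraries without it. With the block 0 ratios passed, since 4 pairs allow no exact permutation p under 0.125. Itgb3, with at most 229 counts in a library, was the subunit most limited by depth.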
